A study of Mus musculus with 2 samples.

Results

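The 10 cathepsin genes Ctsa, Ctsb, Ctsc, Ctsd, Ctsf, Ctsh, Ctsk, Ctsl, Ctss and Ctsz were followed through a single-cell RNA-seq data set of the mouse cerebral cortex. They were chosen by name among the 55450 genes counted in both libraries, without a cut on a measured value. Earlier results of these data were known when they were chosen. The study set the cortex of mice with experimental white matter injury (WMI) beside the cortex of control mice, with 1 10x Genomics library per group. All animals were C57BL/6 mice that the labels give as 2 weeks old. In the WMI group the labels place ligation of the right common carotid artery under 1 h of hypoxia at postnatal day 7, and collection of the ligated cortex at postnatal day 14. The control group gave the cortex of that side at the same age. The published methods give younger ages at both steps, and they describe dissociated cells where the labels describe nuclei. The age therefore cannot be settled here, and the kind of particle was not tested. The 2 libraries hold no replicate of either group, and every interval below is a 95% interval that covers counting error only. No difference between the groups was tested.

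Cathepsins are proteases of the lysosome and endosome. Most of them are cysteine proteases of the papain family (cathepsins B, C, F, H, K, L, S and Z), cathepsin D is an aspartic protease, and cathepsin A is a serine carboxypeptidase that also protects other lysosomal enzymes. They are made as inactive precursors, are carried to the lysosome mostly by mannose 6-phosphate receptors, and are matured there in an acid environment. In the brain, cathepsin S is known as a protease of microglia, which uses it to trim the invariant chain of MHC class II, whereas cathepsins B, D and L are used by neurons and glia alike to turn over proteins and lipids.

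After filters on depth and on predicted doublets, 8755 control and 7571 WMI barcodes were kept, with a median of 4198 and 4973 unique molecular identifiers (UMIs, counted RNA molecules) per cell. A level is given as CPM, the UMIs of a gene per 1000000 UMIs of a class of cells in 1 library. Clusters were named from marker lists, and the classes used were homeostatic microglia-like cells (423 control and 665 WMI cells), astrocyte-like cells (500 and 584), oligodendrocyte (OL) lineage cells (557 and 962) and neuron-like cells (7008 and 3314). A myeloid sub-cluster whose leading genes included Apobec1, F13a1, Plin2, Gpnmb and Mrc1 held 18 control and 461 WMI cells. Together with the homeostatic cells it made up all control and nearly all WMI cells of the myeloid-like class (441 and 1138). A few WMI cells of the class were in neither. In homeostatic cells the 17 microglial markers summed to 4365 CPM in control and 6162 CPM in WMI, against 189 and 579 CPM in astrocyte-like cells. All 17 had UMIs in both of these classes, so presence alone does not set them apart. The median mitochondrial share was 0.0622% in control and 0.449% in WMI cells, and the median share of ribosomal protein genes was 0.222% and 0.274%. Xist, which is transcribed from the inactive X chromosome of female cells, had a UMI in 4 control cells and in 4775 WMI cells. Y-linked genes had a UMI in 6478 control and 4505 WMI cells, 6474 and 1980 of them without Xist. The sex make-up of the libraries therefore differed with the injury. Among the neuron-like clusters, 1 held 2356 control and 52 WMI cells, another 1184 and 15, and another 52 and 604. The neuron-like sum and some other neuron-like values are therefore also given without the clusters that drew at least 90% of their cells from 1 library. The shares of neuron-like cells with a UMI are given with these clusters only. The libraries shared 36 barcode sequences.

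Across all kept cells the 10 genes had 10578 UMIs in control and 48346 in WMI, or 191 and 905.5 CPM. In the control library 74.5% of these UMIs lay in neuron-like cells and 12.2% in myeloid-like cells. In the WMI library the neuron-like share was 37.9% and the myeloid-like share 30.2%, with 15.6% in the Plin2-Gpnmb cells alone. Myeloid-like cells were 5.04% of kept control cells and 15.0% of kept WMI cells. Over both libraries together, Ctsd had the most UMIs of the 10 genes (2297 in control and 18307 in WMI) and Ctsk the fewest (244 and 212). In control alone Ctsb had more than Ctsd (3027), and Ctsc (144) and Ctsh (149) had fewer than Ctsk.

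In homeostatic microglia-like cells the summed cathepsin level was 891 CPM in control and 3311 CPM in WMI, a ratio of 3.72-fold (log2 1.89, interval 1.81 to 1.98). Of the 9 members with at least 50 UMIs in these cells, 8 were over 2-fold higher in WMI, where 4.47% of all 8733 genes tested were. None of the 9 was over 2-fold lower, where 1.05% of genes were. The median log2 ratio of the 9 members was 1.77, and that of all genes tested was 0.10. Markers of another myeloid state moved within the same class, as the 14 markers of lipid-laden myeloid cells summed to 276 CPM in control, with 7 of them at 0, and to 1611 CPM in WMI, with 2 at 0. Gpnmb, a leading gene of the Plin2-Gpnmb cells, had 2 control and 118 WMI UMIs there. Their part in the cathepsin values was not tested. In all myeloid-like cells, which include the Plin2-Gpnmb cells, the sum went from 897 to 3730.3 CPM (log2 2.06, interval 1.97 to 2.14). Again 8 of 9 members were over 2-fold higher, where 8.09% of 10601 genes were.

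Among the cysteine cathepsins, Ctsb, a broadly expressed endopeptidase and dipeptidase, was at 138 CPM in control and 693 CPM in WMI homeostatic cells (log2 2.33, interval 2.11 to 2.56). Ctsz, a carboxypeptidase, was at 36.4 and 186 CPM (log2 2.35, 1.92 to 2.81). Ctsl, an endopeptidase, was at 70.7 and 293 CPM (log2 2.05, 1.74 to 2.37). These 3 members stood between 4.14-fold (Ctsl) and 5.10-fold (Ctsz) above control, with overlapping intervals.

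Ctss, Ctsc and Ctsh formed a group with smaller ratios. Ctss, the elastinolytic protease of antigen-presenting cells, was at 247 CPM in control and 554 CPM in WMI (log2 1.17, interval 0.99 to 1.34). Ctsc, the dipeptidyl peptidase that activates granule serine proteases, was at 34.2 and 84.6 CPM (log2 1.31, 0.83 to 1.80), and Ctsh, an aminopeptidase, at 40.8 and 87.0 CPM (log2 1.09, 0.65 to 1.55). The interval of Ctss lies wholly below those of Ctsb, Ctsl and Ctsz.

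The remaining cysteine members were low. Ctsf was at 27.7 CPM in control and 52.1 CPM in WMI homeostatic cells (log2 0.91, interval 0.37 to 1.49), the 1 tested member under 2-fold. Ctsk, best known as the collagenase of osteoclasts, had 5 control and 10 WMI UMIs there (log2 0.39, -1.29 to 2.29), too few to show a difference at this depth.

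The aspartic protease gene Ctsd was at 239 CPM in control and 1174 CPM in WMI homeostatic cells (log2 2.30, interval 2.13 to 2.47). The serine carboxypeptidase gene Ctsa was at 53.9 and 184 CPM (log2 1.77, 1.41 to 2.15). In the per-cell view, the summed cathepsins made up a median of 7.26 of every 10000 UMIs in a control homeostatic cell (10th to 90th percentile of cells, 0 to 17.3) and 29.9 in a WMI cell (14.7 to 55.0). The upper part of the control cells and the lower part of the WMI cells therefore overlapped.

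**Figure D1:**
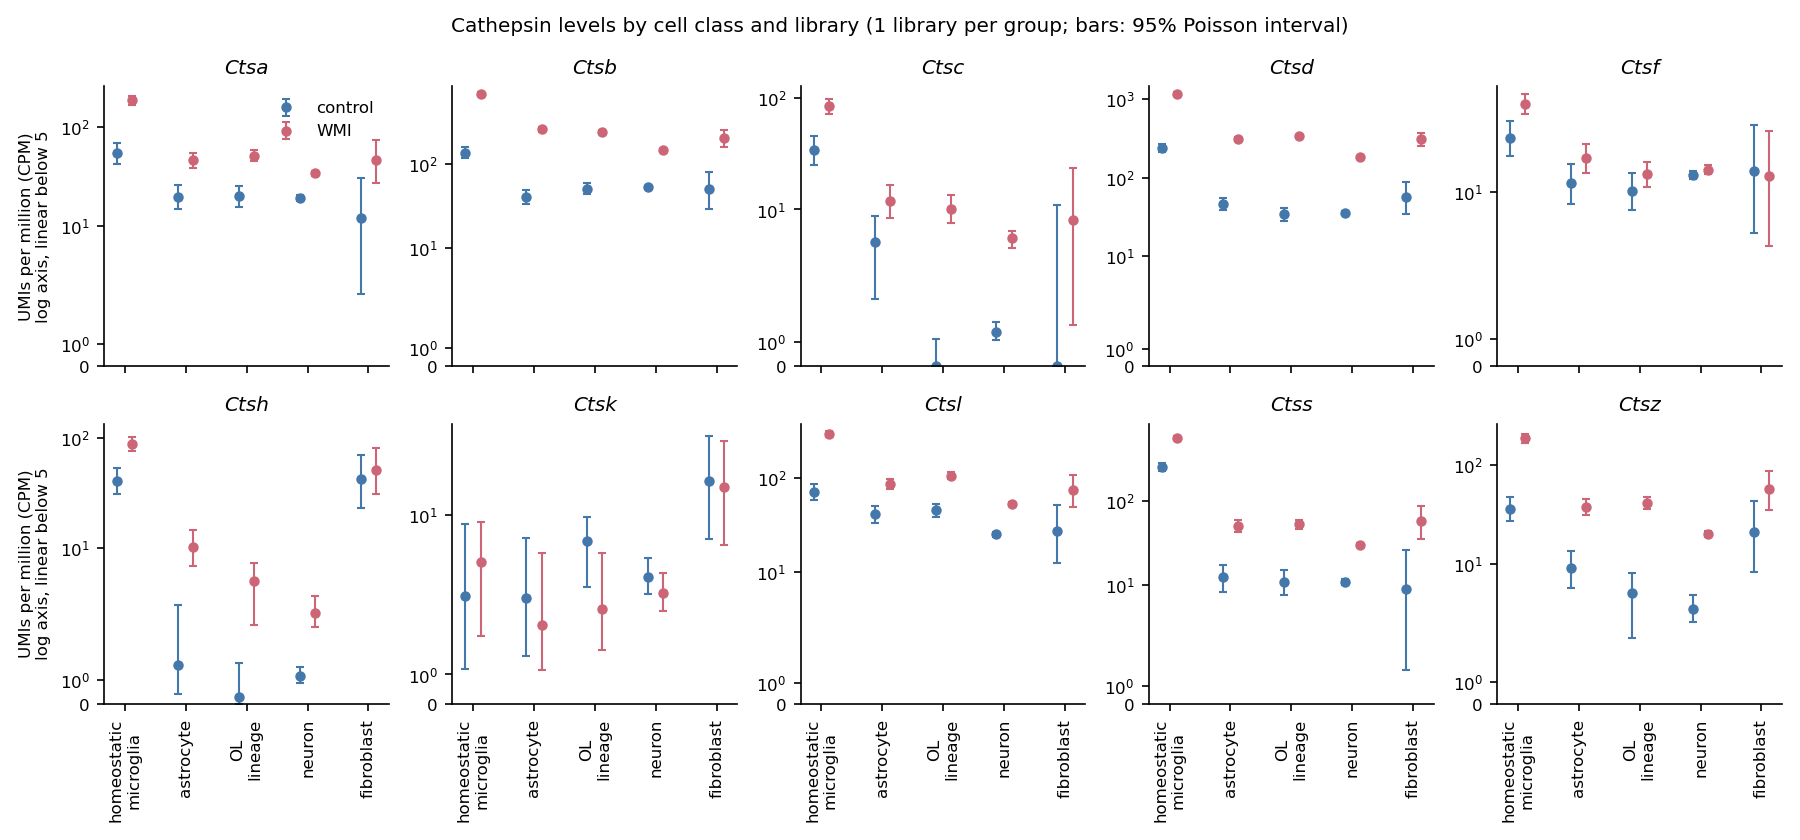
Level of each cathepsin (CPM, on an axis that is logarithmic above 5 and linear below) in 5 classes of cells, with control in blue and WMI in red and bars for the 95% Poisson interval. Points are single libraries. In homeostatic microglia-like cells the WMI point lies above the control point for 10 of 10 genes, with overlapping intervals for Ctsk.

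With each cell thinned to 1000 UMIs, Ctsd had a UMI in 89 of 423 control homeostatic cells and in 434 of 665 WMI cells (65.3%). Without thinning the shares were 48.9% and 92.6%, and the median cell held 3106 and 2894 UMIs. Ctsb went from 55 of 423 to 314 of 665 thinned cells (33.6% to 80.8% unthinned), Ctsl from 7.57% to 24.1% (20.3% to 52.3%) and Ctss from 20.8% to 35.8% (48.5% to 70.1%). In neuron-like cells, thinned alike, Ctss had a UMI in 1.71% of the control library and 3.56% of the WMI library (27.8% of WMI unthinned), and the median neuron-like cell held 4058 and 9381 UMIs. Ctsd had one in 5.68% and 19.6% of neuron-like cells, and Ctsb in 6.88% and 16.5%. The unthinned neuron-like shares were 20.5% and 84.1% for Ctsd and 28.5% and 78.3% for Ctsb.

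Within the WMI library, the Plin2-Gpnmb myeloid-like cells and the homeostatic cells carried the members in different proportions. The cells were clustered without the cathepsins, but other genes of these cells defined the clusters, so the values are a description. Their sum was 4198 CPM in Plin2-Gpnmb and 3311 CPM in homeostatic cells (log2 0.34, interval 0.30 to 0.39). Ctsc was at 149.8 against 84.6 CPM (log2 0.82, 0.55 to 1.11), Ctsb at 1168 against 693 CPM (log2 0.75, 0.66 to 0.85), Ctsa at 250 against 184 CPM (log2 0.44, 0.24 to 0.64) and Ctsd at 1581 against 1174 CPM (log2 0.43, 0.35 to 0.51). Ctsh (log2 0.39) and Ctsz (log2 0.37) were also higher, with intervals above 0.

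Ctss, Ctsl and Ctsf went the other way. Ctss was at 416 CPM in Plin2-Gpnmb cells and at 554 CPM in homeostatic cells (log2 -0.41, interval -0.55 to -0.28). Ctsl was at 248 against 293 CPM (log2 -0.24, -0.42 to -0.06), and Ctsf at 25.1 against 52.1 CPM (log2 -1.06, -1.59 to -0.54). Ctsk had 12 and 10 UMIs. All 14 markers of lipid-laden myeloid cells had UMIs in the Plin2-Gpnmb cells, with a summed level of 4571 CPM against 1611 CPM in homeostatic WMI cells, and the 8 markers of perivascular macrophages summed to 1200.4 against 310.2 CPM. The 18 control cells of that sub-cluster carried the perivascular markers at 2727 CPM and the lipid-laden markers at 686 CPM, so its libraries are not compared.

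**Figure D2:**
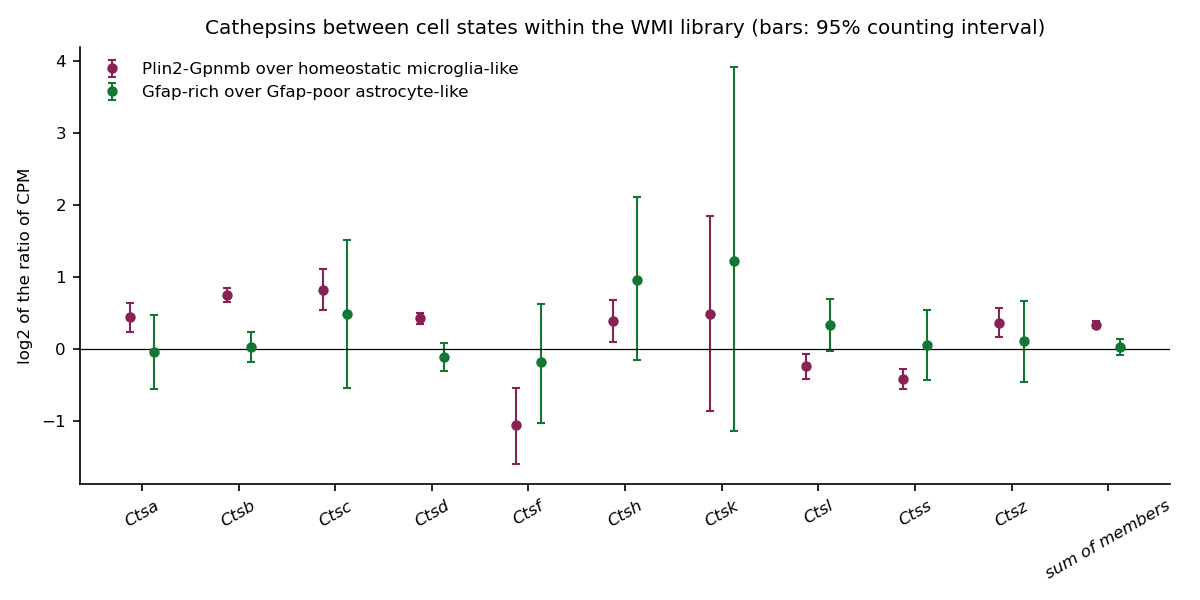
Log2 ratio of CPM between cell states within the WMI library for each cathepsin, with bars for the 95% counting interval. Plin2-Gpnmb over homeostatic cells lies above 0 for Ctsa, Ctsb, Ctsc, Ctsd, Ctsh and Ctsz and below 0 for Ctsf, Ctsl and Ctss. All 10 intervals of Gfap-rich over Gfap-poor astrocyte-like cells include 0.

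The members were higher in WMI outside the myeloid cells as well. In astrocyte-like cells the sum went from 191 to 835 CPM (log2 2.13, interval 1.99 to 2.27). Ctsd was at 46.3 CPM in control and 313 CPM in WMI (log2 2.76, 2.48 to 3.05) and Ctsb at 40.8 and 259 CPM (log2 2.67, 2.37 to 2.98). Ctsz (log2 2.06), Ctss (2.02), Ctsa (1.22) and Ctsl (1.08) were also past 2-fold. Ctsf was at 11.9 and 18.8 CPM (log2 0.67, 0.00 to 1.36). Over 2-fold were 6 of the 7 members with at least 50 UMIs, where 5.81% of 10353 genes were, and the members' median log2 ratio was 2.02 against 0.11 for all genes tested. Ctsc, Ctsh and Ctsk fell short of 50 UMIs.

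A2m and Gfap, an intermediate filament gene of reactive astrocytes, led 1 of the astrocyte-like sub-clusters. In the WMI library the cathepsin sum was 847 CPM in Gfap-rich and 829 CPM in Gfap-poor cells (log2 0.03, interval -0.09 to 0.15). In the control library it was 247 CPM in Gfap-rich and 181 CPM in Gfap-poor cells (log2 0.45, 0.11 to 0.77), with Ctsb (log2 0.80, 0.09 to 1.47) and Ctsl (log2 0.88, 0.17 to 1.53) also above 0. The difference between the libraries in this contrast was not tested. Single low members such as Ctsh (14.4 and 7.38 CPM, log2 0.96, -0.15 to 2.11) were not measured well enough to show one.

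In OL-lineage cells the sum went from 183 to 859 CPM (log2 2.23, interval 2.11 to 2.36). Ctsd was at 33.9 CPM in control and 335 CPM in WMI (log2 3.31, 3.03 to 3.60), and Ctsz at 5.14 and 41.2 CPM (log2 3.00, 2.29 to 3.81). Ctsb (51.1 and 243 CPM, log2 2.25), Ctss (10.9 and 52.2 CPM, log2 2.26), Ctsa (log2 1.35) and Ctsl (log2 1.22) followed. Ctsc had 0 of 3307477 control UMIs and 51 WMI UMIs. A count of 0 allows up to 0.907 CPM on a floor of 3 counts, and the WMI level of Ctsc was 11.2-fold that bound. With the counting error of both libraries, the lower limit of its log2 ratio was 3.14. Over 2-fold were 7 of 8 members tested, where 2.6% of 11289 genes were. The members' median log2 ratio was 2.26 with Ctsc at its bound, against 0.05 for all genes tested. Ctsc reached the number of UMIs needed for testing through the WMI library alone, so its call was fixed by the filter. Its part in the count and in the median is therefore a description only. Ctsh had 1 control and 25 WMI UMIs (16.5-fold, log2 4.05, interval 1.44 to 9.41).

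Ctsk was the 1 member with a lower WMI level in OL-lineage cells, at 6.35 CPM in control and 3.20 CPM in WMI (21 and 16 UMIs, log2 -0.99, interval -2.03 to 0.02). Its interval reaches 0. Within the lineage, mature OL-like cells had 11 and 4 of these UMIs (14.8 and 8.34 CPM). The sum of the members was 174 CPM in control and 907 CPM in WMI in OL precursor (OPC)-like cells, 205 and 843 CPM in pre-OL-like cells, and 175 and 702 CPM in mature OL-like cells. Ctsl was at 61.9 CPM in control and 189.6 CPM in WMI in mature OL-like cells (log2 1.62, 1.09 to 2.16), at 55.9 and 103.5 CPM in pre-OL-like cells and at 31.4 and 86.9 CPM in OPC-like cells. The mature and pre-OL-like intervals overlapped in control and lay apart in WMI.

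In neuron-like cells the sum went from 168 to 495 CPM (log2 1.56, interval 1.52 to 1.598), and from 124 to 494 CPM (log2 2.00, 1.95 to 2.04) without the clusters of 1 library. Ctsd was at 35.5 CPM in control and 184 CPM in WMI (log2 2.37, 2.30 to 2.45), Ctsz at 4.32 and 20.3 CPM (log2 2.23), Ctsb at 52.7 and 147 CPM (log2 1.48), Ctss at 10.9 and 29.5 CPM (log2 1.44) and Ctsl at 24.8 and 52.6 CPM (log2 1.09). Ctsa was at 19.2 and 33.9 CPM (log2 0.82, 0.70 to 0.95). Over 2-fold were 7 of 10 members, where 2.8% of 18289 genes were, and the members' median log2 ratio was 1.46 against -0.07 for all genes tested. Without the clusters of 1 library Ctsa was at 15.7 and 33.8 CPM (2.15-fold), past 2-fold, which left Ctsf and Ctsk as the members under it, and the ratio of Ctsd was 7.89-fold in place of 5.18-fold. Excitatory (log2 2.05) and inhibitory (log2 2.04) neuron-like cells had summed ratios that overlap.

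Ctsf and Ctsk changed least in neuron-like cells. Ctsf was at 13.8 CPM in control and 15.2 CPM in WMI (log2 0.13, interval -0.03 to 0.30), and 12.1 and 15.6 CPM (log2 0.37, 0.18 to 0.57) without the clusters of 1 library. Ctsk was at 4.26 and 3.73 CPM (log2 -0.19, -0.52 to 0.13), and 3.95 and 4.02 CPM (log2 0.03) without those clusters. With 200 and 138 UMIs of Ctsk, a 2-fold change in either direction lies outside its interval.

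**Figure D3:**
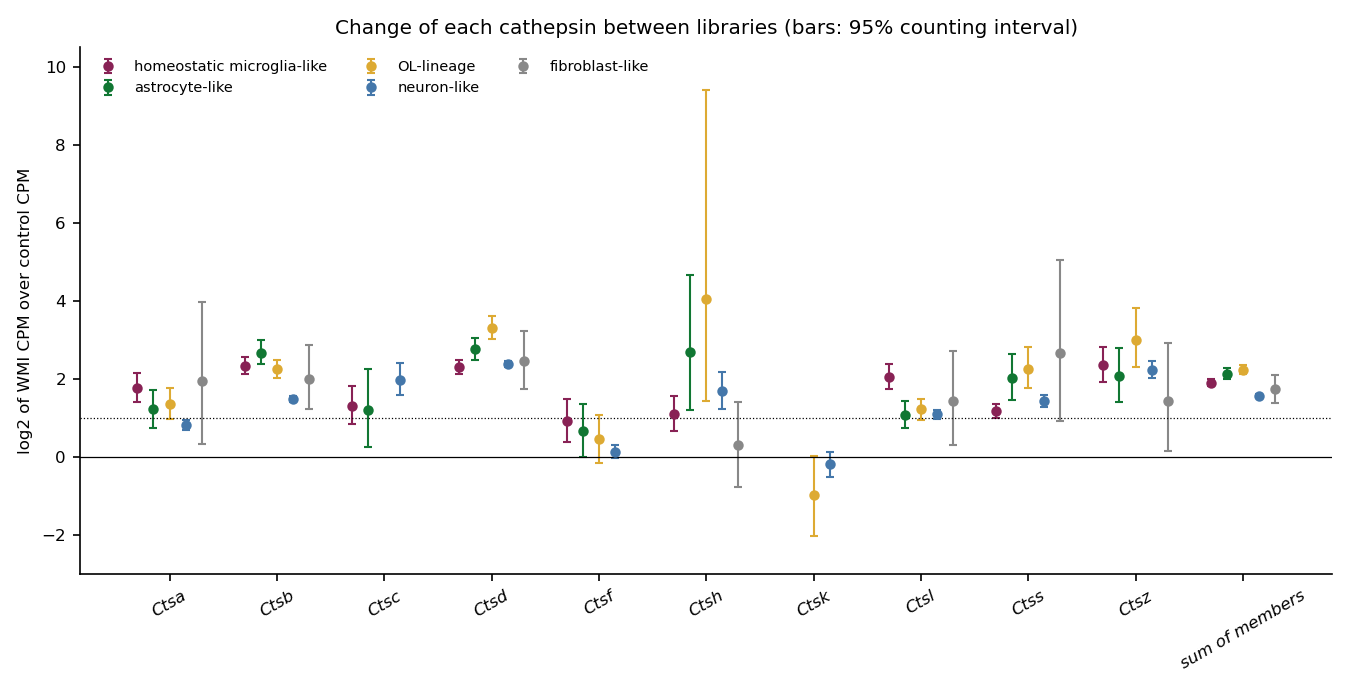
Log2 of the WMI level over the control level for each cathepsin and their sum in 5 classes (colours), with bars for the 95% counting interval. Values with fewer than 20 UMIs over both libraries or with a library at 0 are not drawn, and the dotted line marks 2-fold. Ctsb, Ctsd, Ctsl, Ctss and Ctsz lie above 2-fold in all 5 classes. Ctsf, and Ctsk where drawn, lie nearest to 0, except in fibroblast-like cells. Neither is drawn there, and Ctsh (log2 0.30) lies nearest to 0.

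The order of the classes differed between members. Ctss was sharply ordered in both libraries, with 247 CPM in control homeostatic cells and at most 16.4 CPM in any named class outside the myeloid cells, and with 554 CPM in WMI homeostatic cells and at most 76.9 CPM in those classes. In the 3 unnamed clusters, which carry some microglial markers, Ctss was at 34.2 to 82.9 CPM in control and at 167 to 201 CPM in WMI. Among the named classes, Ctsd had the myeloid cells first in both libraries (239 CPM in control homeostatic cells). Its intervals did not overlap the next named class, fibroblast-like cells at 56.8 CPM in control and mural cell-like cells at 612 CPM in WMI. The unnamed clusters lay between, at 805 to 1096 CPM in WMI, and at 0 to 73.3 CPM in control. The WMI step therefore holds for named classes only. Ctsl had no such step. In control its intervals overlapped between homeostatic microglia-like (70.7 CPM), mature OL-like (61.9 CPM) and pre-OL-like cells (55.9 CPM), and the highest value, in mural cell-like cells, rested on 2 UMIs. Ctsf was highest in WMI in homeostatic cells, apart from the next class by its interval, and in control its intervals overlapped from one class to the next throughout. Ctsh had its highest control level in endothelial cell-like cells (132 CPM, 12 UMIs), followed by fibroblast-like (41.8 CPM) and homeostatic cells (40.8 CPM). Ctsk was highest in fibroblast-like cells in both libraries, at 17.9 and 16.2 CPM with 6 UMIs each.

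Because RNA released from broken cells is captured with every cell, the members' levels outside the myeloid class were set beside those of 12 myeloid genes (Tyrobp, Fcer1g, C1qa, C1qb, C1qc, Csf1r, Laptm5, Cx3cr1, Trem2, Ly86, Aif1 and Cd53). In neuron-like cells these reference genes summed to 3.66% of their myeloid level in control and 6.30% in WMI. Without the clusters of 1 library they were at 2.35% and 6.18%. In astrocyte-like cells they were at 4.50% and 12.1%, and in OL-lineage cells at 3.77% and 11.6%. Reads of myeloid genes outside the myeloid class were thus a larger share in WMI in each of these classes.

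In the WMI library the members lay inside or above the range of the reference genes in each of the 3 classes. In WMI neuron-like cells the reference genes ran from 2.21% to 9.29% of the myeloid level. Ctsh (3.74%), Ctsc (4.85%) and Ctss (6.02%) lay inside this range, and the other 7 members lay above it, from Ctsz at 9.61% and Ctsd at 13.4% to Ctsf at 38.5% and Ctsk at 66.3%. In WMI OL-lineage cells, where the reference genes reached 18.1%, Ctsh (5.01%), Ctsc (8.93%) and Ctss (10.6%) were again inside, and Ctsd was at 24.5%, Ctsb at 26.6% and Ctsl at 38.3%. In WMI astrocyte-like cells 6 of 10 members lay above the highest reference gene (18.3%), with Ctsd at 22.9% and Ctsb at 28.4%. Ctsz, at 17.98%, was inside the reference range there. In these 3 classes the WMI levels of Ctsc, Ctsh and Ctss lay within the reference range, as did Ctsz in astrocyte-like cells. Neither these levels nor those above the range are read as expression by those cells, because the part of free RNA was not tested. In control, the levels relative to myeloid cells were 14.8% for Ctsd, 37.0% for Ctsb and 35.0% for Ctsl in neuron-like cells, where the highest reference gene was at 7.36%. Without the clusters of 1 library the highest reference gene was at 4.05% in control. Ctsd was then at 23.1 CPM in place of 35.5, Ctsb at 39.6 in place of 52.7 and Ctsl at 17.6 in place of 24.8.

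**Figure D4:**
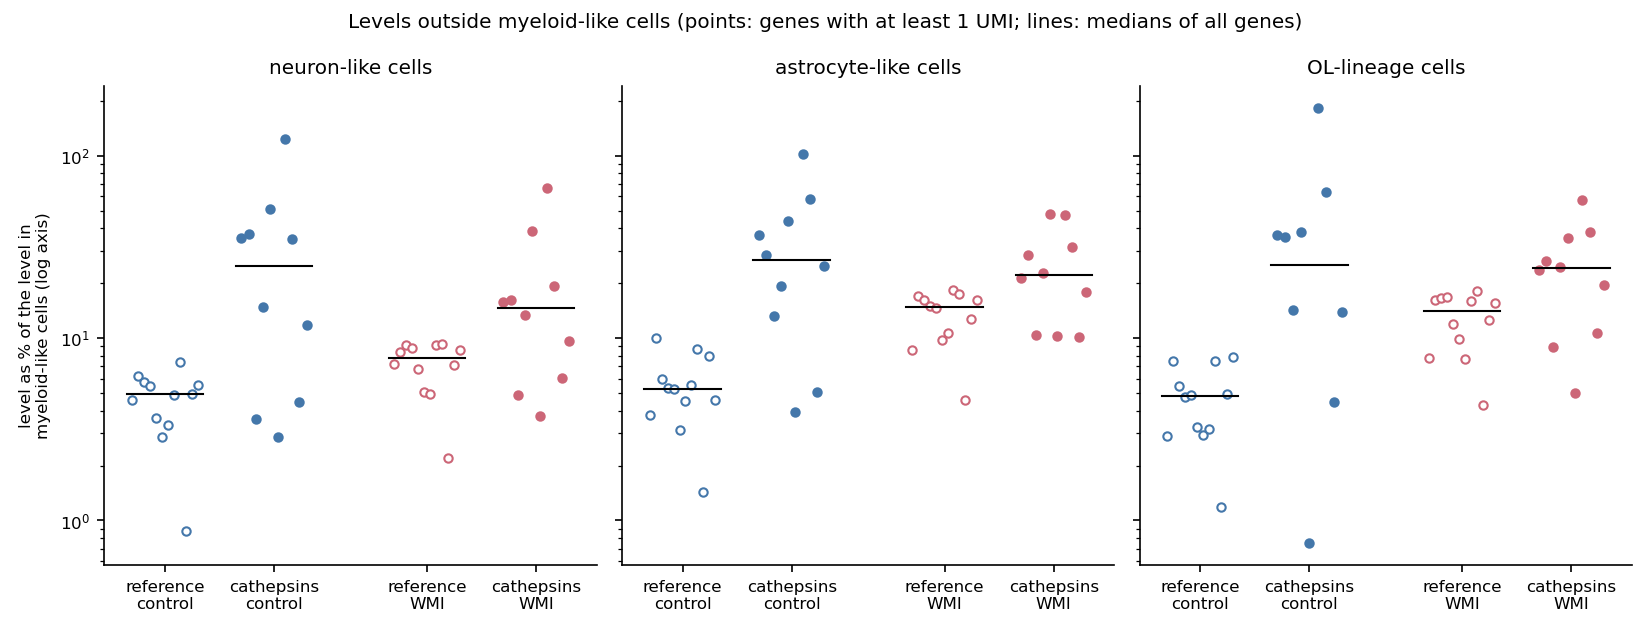
Level outside the myeloid class as a percentage of the level in myeloid-like cells of the same library (logarithmic axis), for the 12 reference genes (open points) and the 10 cathepsins (filled points) in control (blue) and WMI (red). Lines are medians. The reference genes move up from control to WMI in all 3 classes, and the members' median lies above theirs in each.

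Counted per cell, the gain of a member from control to WMI was compared between homeostatic cells and 5 other classes (neuron-like, astrocyte-like, OL-lineage, neuroblast-like and fibroblast-like). The neuron-like cells here exclude the clusters of 1 library. Ctsd rose from 0.248 to 2.04 UMIs per cell in neuron-like cells, from 0.234 to 1.62 in astrocyte-like cells, from 0.201 to 1.74 in OL-lineage cells and from 0.333 to 1.65 in fibroblast-like cells. These gains of 1.32 to 1.79 UMIs per cell compare with 2.92 (interval 2.75 to 3.09) in homeostatic microglia-like cells, which went from 0.775 to 3.69. Median depth per cell differed, from 9519 UMIs in WMI neuron-like cells to 2894 in WMI homeostatic cells. The sum of the members gained 2.99 to 4.21 UMIs per cell in these 5 classes and 7.53 (7.23 to 7.82) in homeostatic cells. Within the OL lineage, mature OL-like cells gained 5.30 (4.54 to 6.09). The 12 reference genes gained 1.87 to 2.37 in the 5 classes and 7.38 (6.96 to 7.81) in homeostatic cells.

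Set against these 5 classes, the gain in homeostatic cells was higher beyond the intervals for 5 members (Ctsb, Ctsd, Ctsl, Ctss and Ctsz) and for 7 of the 12 reference genes. This did not hold in every finer group. In mature OL-like cells Ctsl gained 1.31 UMIs per cell (interval 0.915 to 1.75), above its homeostatic gain of 0.691 (0.604 to 0.778). Mature OL-like cells were deeper, with a median of 8399.5 UMIs in WMI against 2894 in homeostatic cells. In CPM, Ctsl went from 61.9 to 189.6 in mature OL-like cells and from 70.7 to 293 in homeostatic cells. An unnamed cluster led by cell division genes (31 control and 58 WMI cells) carried 14 of 17 microglial markers, with a median of 4997 UMIs in WMI. It also carried 5 OPC markers and 6 markers of lipid-laden myeloid cells at the naming thresholds, so it may hold cells of more than 1 kind. There Ctsd went from 0.323 to 4.48 UMIs per cell, Ctsb from 0.323 to 2.67 and the sum from 1.65 to 10.8. These gains were larger than in homeostatic cells. The part of a different mix of cells in the 2 libraries of that cluster was not tested. In CPM the sum went from 283 to 1944 in that cluster and from 891 to 3311 in homeostatic cells. The margin differed between members. The homeostatic gain was 1.42 times the neuron-like gain for Ctsb and 1.63 times for Ctsd, against 3.82 times for Ctss and 2.43 times for Ctsz. After subtraction of the neuron-like gain from each WMI value, Ctsd in homeostatic cells was 2.45-fold its control value, Ctsz 3.33-fold, Ctsl 2.23-fold, Ctsb 2.14-fold and Ctsa 2.11-fold. Ctsc was at 1.91-fold, Ctss 1.87-fold, Ctsh 1.82-fold, Ctsf 1.32-fold, Ctsk 1.05-fold and the sum 2.15-fold. Treated alike, the reference genes ran from 1.14-fold (Csf1r) to 2.89-fold (C1qa), and their sum was 1.55-fold. How much of the gain in any class is free RNA was not tested.

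**Figure D5:**
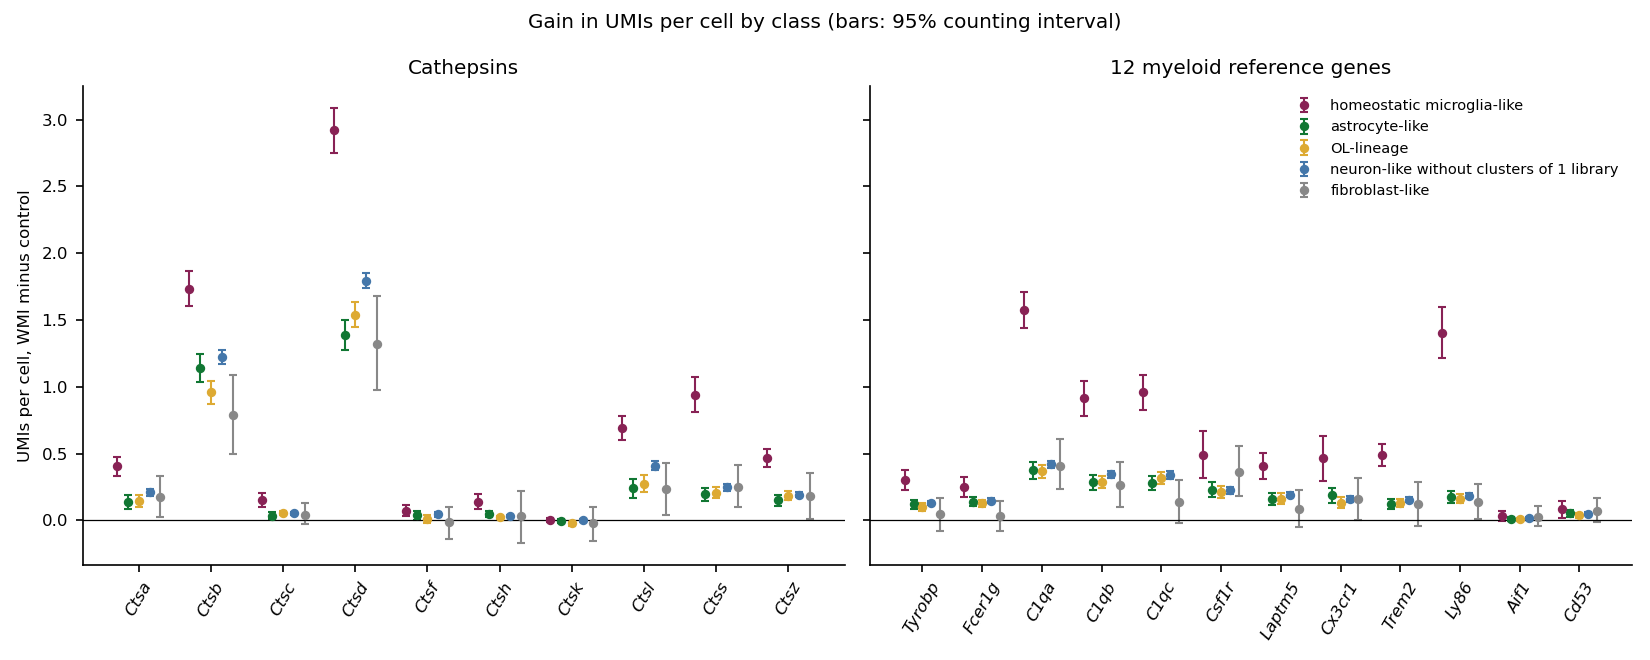
Gain in UMIs per cell (WMI minus control) for each cathepsin (left) and each of 12 myeloid reference genes (right) in 5 classes (colours), with bars for the 95% counting interval. For Ctsd and Ctsb the non-myeloid classes lie between 0.789 and 1.79 UMIs per cell, and the homeostatic microglia-like cells lie above them.

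Values of other cells moved with the same comparison. The 10 neuronal markers summed to 14022 CPM in control and 9959 CPM in WMI homeostatic cells, and the 17 microglial markers to 189 and 579 CPM in astrocyte-like, 168 and 544 CPM in OL-lineage and 150 and 294 CPM in neuron-like cells. None of the microglial markers was at 0 in these classes. The 4 erythroid markers summed to 7.29 and 12.4 CPM in homeostatic cells, and 1 of them was at 0 in WMI. Among cells with no Xist UMI and with a UMI of a Y-linked gene, the summed log2 ratio was 1.90 (interval 1.78 to 2.02) in homeostatic cells, as in all cells. The part of these other differences in the cathepsin values was not tested.

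Genes that act with the cathepsins were read from fixed lists in the myeloid-like cells, counting those over 2-fold higher in WMI among those with at least 50 UMIs, where 8.09% of all 10601 genes tested were. Cst3, the secreted inhibitor cystatin C and the only 1 of 9 listed inhibitors with enough UMIs, was at 738 CPM in control and 879 CPM in WMI (log2 0.25, interval 0.15 to 0.35). The intervals of 8 of the 9 tested members lie above that of Cst3, and that of Ctsf overlaps it. In homeostatic cells alone its log2 ratio was 0.74 (0.64 to 0.85), and 6 of the 9 members lay above that interval, while those of Ctsc, Ctsf and Ctsh overlapped it. Of 9 genes for processing and stability of cathepsins, 3 were over 2-fold, with a median log2 ratio of 0.71. These were Grn (progranulin, 132 and 457 CPM, log2 1.79), Glb1 (the β-galactosidase that cathepsin A protects, log2 1.44) and Psap (the saposin precursor, 272 and 593 CPM, log2 1.13). Lgmn, the asparagine endopeptidase that cleaves cathepsin precursors, had the most UMIs of that list, at 517 and 856 CPM (log2 0.73).

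Among 8 genes of delivery to the lysosome, 2 were over 2-fold, Scarb2 (the receptor LIMP-2, 73.6 and 246 CPM, log2 1.74) and Nagpa (the enzyme that uncovers mannose 6-phosphate, 9 and 58 UMIs, log2 1.25), and the median was 0.63. Among 9 lysosomal membrane genes, 4 were over 2-fold, Gpnmb (2 and 1259 UMIs, log2 7.86, interval 6.00 to 10.9), Cd63 (14.6 and 120.1 CPM, log2 3.04), Lamp1 (70.9 and 177 CPM, log2 1.32) and Cd68 (log2 1.25). Gpnmb is a leading gene of the Plin2-Gpnmb cells, which were 18 in control and 461 in WMI. Of 19 other lysosomal genes tested, most of them for hydrolases, 6 were over 2-fold, with a median of 0.74. They were Lipa (the acid lipase, 12.5 and 76.7 CPM, log2 2.62), Npc2 (not a hydrolase, 1.71), Galns (1.37), Naglu (1.31), Hexa (1.20) and Manba (1.15).

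The proton pump had smaller ratios than most cathepsins. Of its 13 listed subunits and accessory genes, 1 was over 2-fold, Atp6v0d2, with 0 control and 319 WMI UMIs. Like Gpnmb, Atp6v0d2 is a leading gene of the Plin2-Gpnmb cells (18 in control and 461 in WMI). It had fewer than 50 UMIs in homeostatic cells. Its WMI level in myeloid-like cells was 39.1-fold the control bound from a floor of 3 counts (lower limit of the log2 ratio 4.98). The median was 0.40 with that gene at its bound. A count of 1 in 13 is near the share over all genes. Atp6v0a1, the most counted subunit, was at 356 and 434 CPM (log2 0.28). Of 4 transcription factors of lysosomal genes, Mitf (197 and 937 CPM, log2 2.25) and Tfec (log2 1.66) were over 2-fold, and the median was 1.27. Among 5 tested partners in antigen presentation, 4 were over 2-fold, with a median of 2.74 with H2-Aa at its bound. Of these 4, Cd74, H2-Ab1 and H2-Aa reached 50 UMIs through the WMI library alone, so their calls were fixed by the filter. The count and the median are therefore descriptions only. Cd74, the invariant chain that cathepsin S trims, had 1 control and 156 WMI UMIs (log2 5.84, interval 3.34 to 11.2). H2-Ab1 had 1 and 75 (log2 4.79), and H2-Aa had 0 and 52 (6.38-fold its control bound, lower limit of log2 2.32). Ifi30, a lysosomal thiol reductase, had 9 and 163 (log2 2.74). Of the cathepsins outside the 10, Ctse had 0 and 75 UMIs (9.20-fold its control bound, lower limit of log2 2.87). Like Atp6v0d2, Ctse reached 50 UMIs through the WMI library alone, so both calls were fixed by the filter. Ctso was at 16.0 and 27.3 CPM (log2 0.78). No listed gene was over 2-fold lower, and the median of all genes tested in myeloid-like cells was 0.11. The 12 reference genes had a median of 0.82, with 4 of 12 over 2-fold (Trem2 1.55, C1qa 1.52, Tyrobp 1.23 and Fcer1g 1.01), and Ly86, the most counted, was at log2 0.65. A mix of cells that differs between libraries and a change within cells cannot be told apart in these sums over the class. In homeostatic cells alone, over 2-fold were 2 of 9 processing, 1 of 6 delivery, 4 of 8 membrane and 4 of 18 other lysosomal genes. So were 0 of 12 proton pump genes, 1 of 4 transcription factors and 1 of 2 antigen presentation partners, where 4.47% of genes were. Tfec was at log2 0.69 there (interval -0.21 to 1.67). Nagpa, Cd74, H2-Aa, H2-Ab1 and Ctse fell short of 50 UMIs.

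In the pattern over 12 classes in each library (24 points of log2(CPM + 1), which share libraries and free RNA), the genes most like Ctsd among 12262 genes were Grn (Pearson's r = 0.97), C1qa (0.96) and C1qb (0.95). Those most like Ctsb were Psap (0.92), Clec7a (0.89) and Apobec1 (0.88), and those most like Ctsl were Lamp1 (0.80), Cap1 (0.80) and Arl8b (0.80). These correlations are descriptions.

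All 10 genes are annotated as protein coding, and all 55450 identifiers matched the GENCODE M21 annotation of GRCm38, although the submitters' notes name mm9. Ctsk (chromosome 3, 95499256 to 95509362) and Ctss (chromosome 3, 95526786 to 95556403) are neighbours on the plus strand, 17423 bases apart, and differed in level and ratio in homeostatic cells as given above. Ctsa and Ctsz lie on chromosome 2 (from 164832873 and 174427493), Ctsc and Ctsd on chromosome 7 (from 88278085 and 142375911), Ctsb on 14 (from 63122462), Ctsf on 19 (from 4855130), Ctsh on 9 (from 90054152) and Ctsl on 13 (from 64359337). Of the 10, 7 overlap another annotated gene. Ctsd, Ctsl and Ctss each overlap 1 gene on their own strand (Gm49369 for Ctsd), so their UMIs could have been split or left out in counting.

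Since most members moved together, their promoters were searched for the E-box letters CACGTG (the same on both strands), which the lysosomal regulators TFEB, TFE3 and MITF are known to bind. RefSeq promoter windows of GRCm38.p6, from 250 bases before to 50 after each start, held entries for 8 of the 10 genes, with none for Ctsb and Ctsh. The letters occur in 7.15% of 32851 promoters, and in those of Ctsa, Ctsd, Ctsf and Ctsl. Ctsd holds them at -245 and at -98 from its start. A stretch of 30 bases around the letters, which stand in capitals, is shown for 3 of them, counted from the RefSeq start site, to let the flanks be compared. On the minus strand, GENCODE M21 starts Ctsd at 142388038 and Ctsl at 64370890. The stretches shown for these genes therefore lie inside the GENCODE genes.
Ctsd (chr7:142387908-142387937, minus strand, first capital at -98): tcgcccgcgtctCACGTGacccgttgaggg
Ctsf (chr19:4855074-4855103, plus strand, first capital at -79): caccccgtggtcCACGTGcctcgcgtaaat
Ctsl (chr13:64370739-64370768, minus strand, first capital at -236): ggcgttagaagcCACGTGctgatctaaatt
The 7-letter form TCACGTG, which contains the E-box, was present in Ctsd and Ctsa and occurs in 3.77% of promoters (both strands). GAGGAAG, letters bound by the myeloid factor PU.1, was present in Ctsc, Ctsk and Ctss (13.6% of promoters), and the AP-1 letters TGANTCA in none of the members (7.81%). The members with an E-box include Ctsd (log2 2.30 in homeostatic cells) and Ctsf (log2 0.91), the smallest of the tested members there. A match describes these windows only.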

How the data were processed

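Cerebral cortex of 1 control and 1 WMI sample was sequenced with the 10x Genomics system. The authors deposited raw UMI counts per gene and barcode for each library, and the submitters' processing notes name mm9 and Seurat. No column of another sample was present (0 columns left out). Barcodes with at least 1000 UMIs, at least 500 genes and at most 10% mitochondrial UMIs were kept, and barcodes scored like simulated doublets were removed at a rate of 0.8% per 1000 barcodes. This left 8755 control and 7571 WMI cells. Libraries were integrated and clustered with Seurat 5.3.0 in R 4.3.3 (1969 features without the cathepsins and the listed genes, 30 dimensions, resolution 0.8, and 1.6 for sub-clusters). Of 32 clusters, 29 were named from marker lists, with naming thresholds set after the clusters were seen. Counts were summed per class and library in Python 3.11.15 (numpy 2.4.6, scipy 1.17.1), with exact Poisson, conditional binomial and Clopper-Pearson 95% intervals for levels, ratios and shares. Genes needed 50 UMIs over both libraries in a class to be tested against 2-fold. Named genes were all members, the genes of each list past 2-fold in myeloid-like cells, the gene with the most UMIs of each list (1 of these is not reported here), and the 3 genes most like each of the 3 most counted members. The members and lists were chosen with earlier results of these data known. Intervals were tested on simulated data for the myeloid-like comparison, where 95.8% of 10601 held the true ratio. The simulated counts were Poisson draws, as the intervals assume, so variation between cells or animals was not covered. Promoter sequence came from RefSeq (GRCm38.p6).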

Additional observations from a re-analysis of the deposited data

Results flagged for a closer look

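Cathepsin UMIs were also present in barcodes that the main comparisons did not use. In the 748 control and 241 WMI barcodes left out by the limits on depth, genes and mitochondrial share, the 10 genes summed to 566 CPM in control and 2304.7 CPM in WMI (log2 2.02, interval 1.82 to 2.23). In the 785 and 542 predicted doublets they summed to 145 and 824 CPM (log2 2.50, 2.42 to 2.58). Both are flagged because a signal above the control level appeared in data outside the main measurement.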

How the results depend on the processing

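Of 44 alternative values of the summed log2 ratio, 35 stayed within the counting interval of the reported value, and none changed direction. In neuron-like cells (reported 1.56) the ratio was 1.62 with doublets kept, 1.64 with at least 2000 UMIs per barcode, 2.00 without the clusters of 1 library, 1.69 in cells with Y-linked but no Xist UMIs, and 1.30 as a mean over cells. After subtraction of the share of the myeloid level that the 12 reference genes gave, it was 0.95 in neuron-like cells, 1.36 in astrocyte-like cells (reported 2.13) and 1.52 in OL-lineage cells (reported 2.23). In homeostatic microglia-like cells (reported 1.89) it was 1.10 after subtraction of the neuron-like gain per cell, an alternative chosen after seeing the data. The cause of the other shifts was not tested. In myeloid-like cells it ranged from 2.04 to 2.12 over 8 alternatives, and 8 members were over 2-fold under all 9 alternatives. Ratios of single members moved beyond their intervals in 11 of 100 cases, and differences in the share of cells with a UMI moved in 85 of 110, under thinning to 2000 UMIs or none. No paired analysis was possible because each group has 1 sample. Depth limits Ctsk in homeostatic cells, with 5 and 10 UMIs.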

Other observations

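In 3 clusters left unnamed, the microglial list matched best among the lists that are not neuronal (8, 7 and 14 of 17 markers). Haemoglobin, mitochondrial or cell division genes led these clusters. Those led by haemoglobin or mitochondrial genes also carried 9 of 10 neuronal markers at the naming thresholds. The one led by cell division genes also carried 5 OPC markers. A cluster of 12 control and 715 WMI cells, led by the haemoglobin genes Hbb-bs, Hba-a1, Hbb-bt and Hba-a2 and by Spp1, with Ctsd, Ctsz and Ctsb among its leading genes, held 7.58% of the cathepsin UMIs of the WMI library and 9.44% of its cells, at a summed level of 2353 CPM. A cluster led by Ftl1 and mitochondrial genes (59 and 515 cells) was at 288.5 CPM in control and 2513 CPM in WMI (log2 3.12, interval 2.75 to 3.52). A cluster led by the cell division genes Top2a and Knl1 (31 and 58 cells) was at 283 and 1944 CPM (log2 2.78, 2.37 to 3.22). The summed WMI level of the 10 genes in each of these clusters lay below that of homeostatic microglia-like cells, at 3311 CPM, and above that of astrocyte-like cells, at 835 CPM.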
